A study of Mus musculus with 6 samples.

Results

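The genes described here are the targets and regulators of the transcription factor NRF2 together with heme oxygenase 1, measured in the liver of mice given LPS with or without GalN. They were taken from the gene descriptions of the array, by the names of heme oxygenase (decycling) 1 (Hmox1), Nqo1, the catalytic and modifier subunits of glutamate-cysteine ligase (Gclc and Gclm), thioredoxin reductase 1 (Txnrd1), sulfiredoxin 1 (Srxn1), glutathione reductase (Gsr), Osgin1, Keap1 and Nfe2l2. All 10 genes were found, in 15 of 44170 target rows. A target row is the summary of 3 probes designed to 1 transcript, and Keap1 had 3 such rows, Srxn1, Osgin1 and Nfe2l2 had 2 each, and the other genes had 1 each. Liver RNA of male wild-type C57 BL/6 mice aged 9 to 10 weeks was hybridised to 6 one-colour arrays, 1 biological replicate per array. The labels give each replicate its own treatment and do not say whether it was a single mouse or a pool. The LPS/GalN group held 3 replicates, from mice given LPS at 0.01 µg (lipopolysaccharide from the outer membrane of bacteria) plus GalN at 20 mg (galactosamine, which hepatocytes take up and which drains their uridine nucleotides). The LPS group held 3 replicates, from mice given the same 0.01 µg dose without GalN. Both treatments lasted 2.5 h, and both groups carried LPS. Mice given GalN alone and untreated mice were not analysed here, so each difference is between LPS/GalN and LPS and not from an untreated liver.

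NRF2, the protein of Nfe2l2, is a transcription factor of the response to oxidants and electrophiles. In unstressed cells KEAP1 holds it in the cytosol and presents it to a CUL3 ubiquitin ligase for degradation. Oxidants modify KEAP1, and NRF2 then reaches the nucleus, pairs with a small MAF protein and binds antioxidant response elements of genes for glutathione synthesis, thioredoxin reduction and quinone detoxification, while BACH1 competes for the same elements as a repressor. Heme oxygenase 1 breaks heme down to biliverdin, carbon monoxide and iron, and its gene answers to NRF2 and BACH1 and also to inflammatory and stress-activated factors such as AP-1 and NF-kB.

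Markers of other tissues were high on 4 of the 6 arrays. Median intensity per array was 60.4 to 63.1, and the row of random probes, used as background, read 31.3 to 34.7. Hepatocyte marker rows summed to similar intensities in both groups (386007 to 432886 in LPS/GalN and 406106 to 445305 in LPS), with 0 of 12 past the threshold. Several, such as Alb (mean log2 15.50 in LPS/GalN and 15.69 in LPS), stood near the highest values on the arrays (15.83 to 15.92). Their sum is therefore a limited check of hepatocyte content. Of the dimmer markers, Apob read 9.27 to 11.35 in LPS/GalN and 10.32 to 11.65 in LPS. Hnf4a read 11.06 to 11.53 in LPS/GalN and 10.79 to 11.06 in LPS. Of the intestinal epithelium markers, 10 of 14 were found in the descriptions, and their intensities summed to 1842 to 2163 on the LPS/GalN arrays, but to 26963 and 28939 on LPS replicates 1 and 2 and to 2264 on LPS replicate 3. Of the T cell and thymus markers, 11 of 14 were found, and they summed to 18344 and 11113 on LPS/GalN replicates 2 and 3, against 2093 on LPS/GalN replicate 1 and 1913 to 2189 on the LPS arrays. Changes of the 10 genes and medians of the lists are also given without each pair of these arrays, which leaves 1 array in a group. The part of these other tissues in any result was not tested.

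Of the 10 genes, 2 fell in LPS/GalN relative to LPS, Hmox1 and Nfe2l2, and the 8 others did not pass the threshold. Hmox1 was 4.03-fold lower and Nfe2l2, in its brighter row, 2.29-fold lower in LPS/GalN than in LPS. The genes of glutathione synthesis, Gclc and Gclm, read 1.56-fold and 1.40-fold higher, and that of thioredoxin reductase 1, Txnrd1, read 1.36-fold lower, with groups that did not overlap but adjusted p-values between 0.202 and 0.319. The threshold was an adjusted p under 0.05 by limma, fitted on log2 intensity over all 44170 rows with Benjamini-Hochberg adjustment. By this threshold 3.78% of all rows differed, 3.13% lower in LPS/GalN and 0.654% higher. The groups did not overlap for 6 of the 10 genes, 4 lower and 2 higher in LPS/GalN, against 24% of all rows. The median log2 change of the 10 genes was -0.19, against 0.05 over all rows of the arrays, whose lower and upper quartiles were -0.27 and 0.34. Over the 16939 rows with a mean above an intensity of 100 the median was 0.11.

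**Figure D1:**
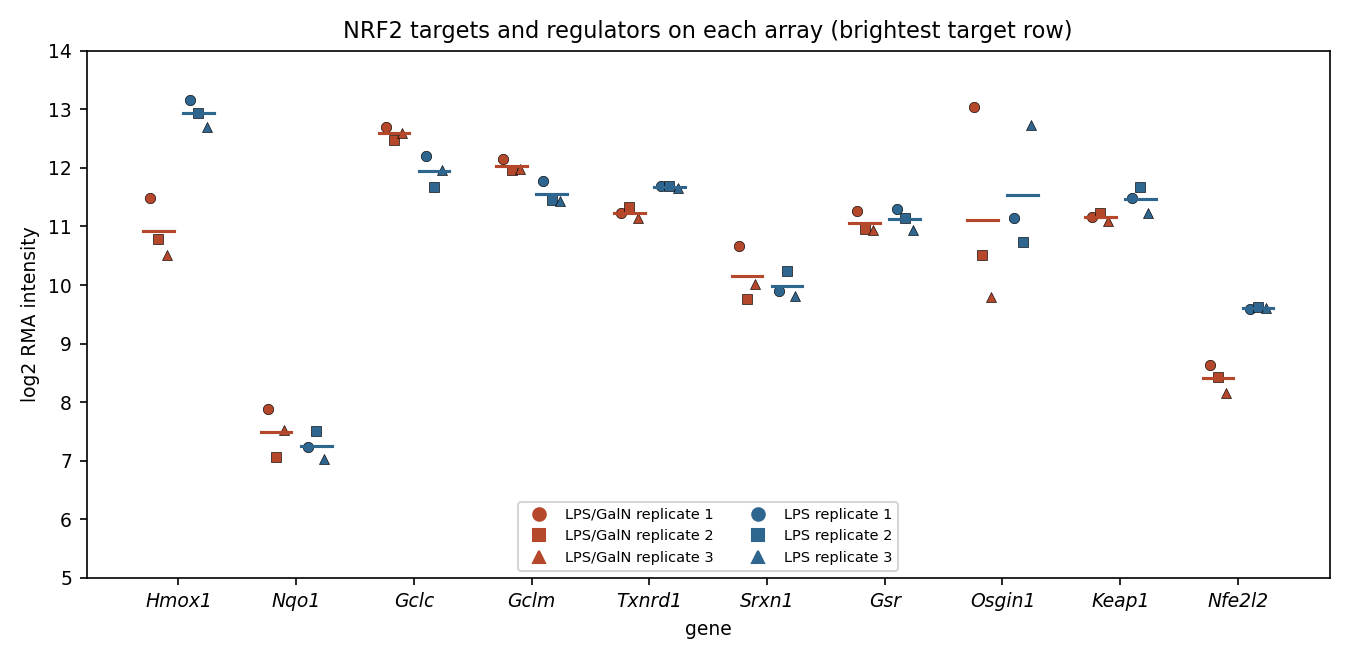
Log2 RMA intensity of each gene on the 6 arrays, taken from its brightest target row, with LPS/GalN arrays in red to the left of LPS arrays in blue, a symbol for each replicate and a bar at the group mean. The LPS/GalN points of Hmox1 (10.51 to 11.48) and Nfe2l2 (8.16 to 8.64) lie below all LPS points, while Osgin1 spans more than 3 log2 units within LPS/GalN (9.79 to 13.05).

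Hmox1, the inducible heme oxygenase, had log2 intensities of 11.48, 10.78 and 10.51 in LPS/GalN replicates 1, 2 and 3, against 13.16, 12.93 and 12.70 in LPS replicates 1, 2 and 3. On the linear scale these were 2855, 1762 and 1456 in LPS/GalN and 9181, 7818 and 6673 in LPS. Every LPS/GalN array lay below every LPS array. The log2 change was -2.01 ± 0.30 (SE, 95% interval -2.70 to -1.32), with an adjusted p of 0.0089 by limma. The transcript it was designed to lies, per the array's annotation, on chromosome 8 at 77617547 to 77624489 of mm9. With each array left out in turn the change lay between -2.29 and -1.80 and passed the threshold each time. Leaving out LPS replicates 1 and 2, so that 1 LPS array remained, gave -1.78 (adjusted p = 0.295). Leaving out LPS/GalN replicates 2 and 3 gave -1.45 (adjusted p = 0.161). On the arrays without high markers of other tissues, LPS/GalN replicate 1 and LPS replicate 3, Hmox1 differed by -1.22, a difference of 2 arrays with no replicate check.

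Macrophages of the liver are a known site of Hmox1 expression, and their markers read higher in LPS/GalN. All 12 Kupffer cell and macrophage markers were found, and they summed to 24104 to 26770 in LPS/GalN and 11760 to 17431 in LPS, with a median log2 change of 0.83 and 0 of 12 past the threshold. The marker sums of the groups did not overlap, and their part in the Hmox1 result was not tested. Of the single markers, Vsig4, Marco and Adgre1 had overlapping groups and the others did not, a separation upward that 12.9% of all rows showed. Of 10 measured sinusoidal endothelial markers 3 rose (Pecam1, Tie1 and Egfl7), and of 10 measured neutrophil markers 2 fell (S100a8 and S100a9). The others did not pass the threshold, and over all rows 0.654% rose and 3.13% fell. In whole liver RNA, fewer cells of a type and less RNA per cell cannot be told apart.

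The brighter row of Nfe2l2, the gene of NRF2 itself, read 8.64, 8.43 and 8.16 in LPS/GalN and 9.59, 9.62 and 9.60 in LPS on the log2 scale. The LPS arrays lay within 0.03 of each other and all LPS/GalN arrays lay below them. The log2 change was -1.19 ± 0.22 (SE, 95% interval -1.71 to -0.68), with an adjusted p of 0.0253 by limma. With 1 array left out the change lay between -1.31 and -1.07. Its adjusted p was over the threshold without LPS replicate 1 (0.0965), 2 (0.0973) or 3 (0.0659) and without LPS/GalN replicate 2 (0.081) or 3 (0.078). Leaving out LPS replicates 1 and 2 gave -1.19 (adjusted p = 0.398), and leaving out LPS/GalN replicates 2 and 3 gave -0.96 (adjusted p = 0.275). The row's transcript is annotated on chromosome 2 at 75513573 to 75542639 of mm9.

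A second, dim row of Nfe2l2, designed to a RIKEN cDNA at 75529108 to 75542698 of the same chromosome, did not pass the threshold. It read 6.52, 5.84 and 6.65 in LPS/GalN and 6.97, 5.28 and 7.10 in LPS, with a change of -0.11 ± 0.49 (SE, adjusted p = 0.937). LPS replicate 2, at an intensity of 38.9, stood close to the random-probe row of its array (33.8), and the groups overlapped.

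The core of the antioxidant response element was looked for in the promoters of the members, and the windows that hold it are shown because they belong to NRF2's own gene and to targets described beside it. The letters searched were TGACNNNGC on both strands, in windows of 300 bases (250 before and 50 after a gene's start) from RefSeq on GRCm38.p6. Windows were at hand for 7 of the 10 genes, and 4 of their 9 windows, each of a different gene, had a match, against 12.4% of 32851 windows of the same length. Hmox1, Gclc and Gsr had no window and were not searched, and the windows of Nqo1, Osgin1 and Keap1 held no match. The windows below are those with a match, written 5′ to 3′ along the gene, with the matched bases in capitals. In Nfe2l2 the letters stand on the gene's own strand, from position -240 relative to the start, and in Gclm (-134), Txnrd1 (-92) and Srxn1 (28) they stand on the opposite strand.
Nfe2l2, chr2:75704614-75704913, minus strand: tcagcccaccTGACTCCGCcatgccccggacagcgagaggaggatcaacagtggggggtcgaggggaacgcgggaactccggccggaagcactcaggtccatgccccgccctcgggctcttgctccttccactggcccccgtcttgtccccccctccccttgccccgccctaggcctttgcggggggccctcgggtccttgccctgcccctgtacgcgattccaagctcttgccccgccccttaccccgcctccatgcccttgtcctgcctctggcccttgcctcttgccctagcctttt
Gclm, chr3:122245307-122245606, plus strand: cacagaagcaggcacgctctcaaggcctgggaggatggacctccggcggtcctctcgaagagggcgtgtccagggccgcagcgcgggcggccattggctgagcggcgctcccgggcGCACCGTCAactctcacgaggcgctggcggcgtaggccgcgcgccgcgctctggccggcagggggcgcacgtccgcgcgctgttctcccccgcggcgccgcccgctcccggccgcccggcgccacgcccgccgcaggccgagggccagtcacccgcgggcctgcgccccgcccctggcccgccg
Txnrd1, chr10:82858956-82859255, plus strand, 1 of 3 windows of this gene: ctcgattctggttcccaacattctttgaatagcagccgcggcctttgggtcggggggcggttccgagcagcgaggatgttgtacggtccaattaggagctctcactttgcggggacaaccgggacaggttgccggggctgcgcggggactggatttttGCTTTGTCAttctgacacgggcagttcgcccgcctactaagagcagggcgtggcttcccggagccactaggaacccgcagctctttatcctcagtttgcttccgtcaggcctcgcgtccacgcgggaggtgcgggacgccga
Srxn1, chr2:152105274-152105573, plus strand: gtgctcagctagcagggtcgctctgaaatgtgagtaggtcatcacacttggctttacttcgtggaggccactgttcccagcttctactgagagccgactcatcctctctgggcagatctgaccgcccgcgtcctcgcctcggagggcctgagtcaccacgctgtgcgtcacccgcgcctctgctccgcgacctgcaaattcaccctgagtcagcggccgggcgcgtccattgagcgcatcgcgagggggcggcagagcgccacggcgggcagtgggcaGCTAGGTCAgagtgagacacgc
A match is a description of these letters and not a site of binding.

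Keap1, the gene of the protein that marks NRF2 for degradation, read lower in LPS/GalN in all 3 of its rows without passing the threshold. The brightest row had 11.16, 11.22 and 11.09 in LPS/GalN and 11.48, 11.68 and 11.23 in LPS, a change of -0.31 ± 0.22 (SE, adjusted p = 0.532). The middle row had 9.27, 9.77 and 9.54 in LPS/GalN and 10.21, 9.96 and 10.09 in LPS, a change of -0.56 ± 0.23 (SE, adjusted p = 0.26). The dimmest row had 9.44, 9.44 and 9.27 in LPS/GalN and 9.73, 9.74 and 9.70 in LPS, a difference of -0.34 ± 0.20 (SE, adjusted p = 0.448). The brightest row differed by -0.08 without LPS replicates 1 and 2 and by -0.30 without LPS/GalN replicates 2 and 3. In each of the 3 rows every LPS/GalN array lay below every LPS array, a separation in that direction that 11.1% of all rows showed.

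**Figure D2:**
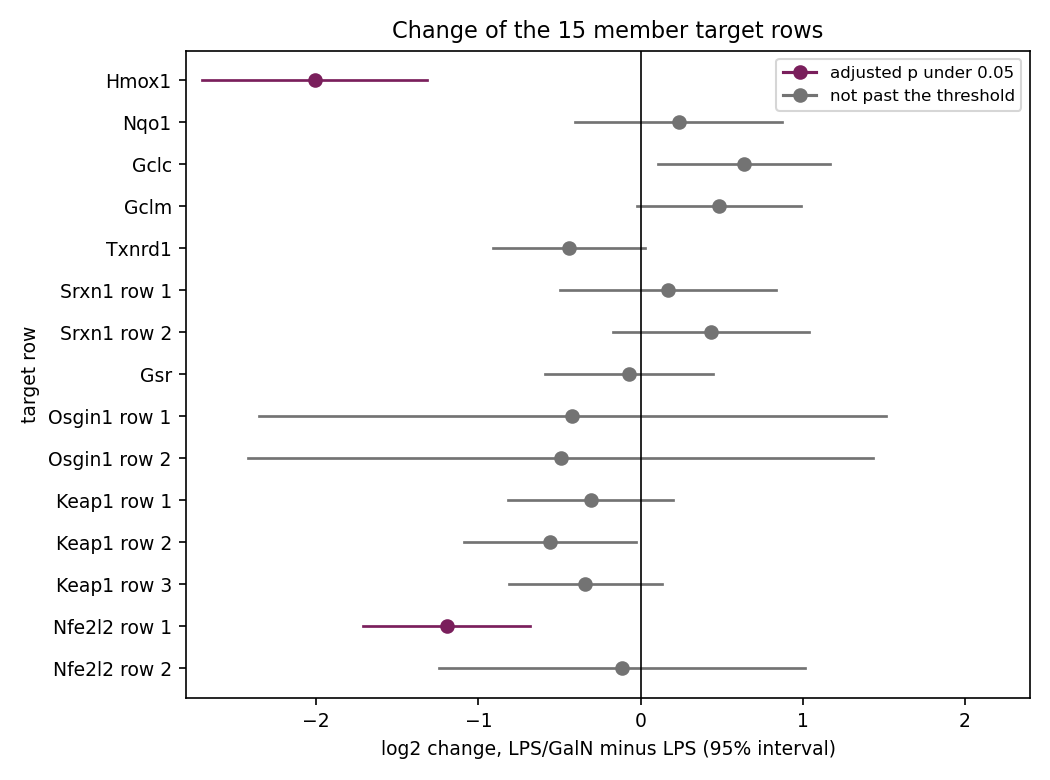
Log2 change of the 15 target rows, LPS/GalN minus LPS, with the 95% interval from limma. Hmox1 and the first row of Nfe2l2, in purple, are the rows past the threshold, and the interval of the brighter Osgin1 row, from -2.35 to 1.51, is among the widest drawn.

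The enzymes of glutathione synthesis read higher in LPS/GalN by amounts that did not pass the threshold. Gclc encodes the catalytic subunit of glutamate-cysteine ligase, the rate-limiting enzyme of glutathione synthesis, and had 12.69, 12.48 and 12.59 in LPS/GalN and 12.21, 11.68 and 11.96 in LPS. Its log2 change was 0.64 ± 0.23 (SE, 95% interval 0.11 to 1.17, adjusted p = 0.202). Gclm, the gene of the modifier subunit of the same enzyme, had 12.15, 11.97 and 11.97 in LPS/GalN and 11.77, 11.44 and 11.43 in LPS, a change of 0.48 ± 0.22 (SE, 95% interval -0.02 to 0.99, adjusted p = 0.306). For both genes every LPS/GalN array lay above every LPS array, as for 12.9% of all rows. Gclc passed the threshold under 1 of 17 alternatives, a fit with an intensity trend and robust spread (adjusted p = 0.00964). Between LPS/GalN replicate 1 and LPS replicate 3, both without high markers of other tissues, Gclc differed by 0.73 and Gclm by 0.72, and with either pair of the other arrays left out both stayed between 0.60 and 0.74.

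Gsr, whose enzyme returns oxidised glutathione to its reduced form, had 11.26, 10.96 and 10.94 in LPS/GalN and 11.30, 11.14 and 10.95 in LPS. The groups overlapped, the change was -0.07 ± 0.22 (SE, adjusted p = 0.907), and its 95% interval ran from -0.59 to 0.44. It was 0.11 when LPS replicates 1 and 2 were left out and 0.14 when LPS/GalN replicates 2 and 3 were.

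Of the thioredoxin branch, Txnrd1, the cytosolic thioredoxin reductase, had 11.24, 11.33 and 11.14 in LPS/GalN and 11.68, 11.68 and 11.66 in LPS. The LPS arrays were nearly equal, and every LPS/GalN array lay below them. The change was -0.44 ± 0.20 (SE, 95% interval -0.91 to 0.03), with an adjusted p of 0.319 by limma. It was -0.42 when LPS replicates 1 and 2 were left out and -0.44 when LPS/GalN replicates 2 and 3 were. Srxn1, which repairs overoxidised peroxiredoxins, had 10.66, 9.77 and 10.02 in LPS/GalN and 9.89, 10.24 and 9.81 in LPS in its brighter row. Its groups overlapped, with a change of 0.17 ± 0.29 (SE, adjusted p = 0.815). It was -0.0853 without LPS/GalN replicate 1, 0.34 when LPS replicates 1 and 2 were left out and 0.68 when LPS/GalN replicates 2 and 3 were. The dimmer row differed by 0.44 ± 0.26 (SE, adjusted p = 0.45), also with overlapping groups.

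Nqo1, a quinone reductase widely used as a readout of NRF2 activity, had 7.87, 7.06 and 7.53 in LPS/GalN and 7.23, 7.50 and 7.03 in LPS. The groups overlapped and the change was 0.24 ± 0.28 (SE, 95% interval -0.40 to 0.87, adjusted p = 0.724). It was 0.0429 with LPS/GalN replicate 1 left out and 0.45 with LPS/GalN replicate 2 left out, and 0.46 and 0.62 when LPS replicates 1 and 2 or LPS/GalN replicates 2 and 3 were left out. All 6 values lay well above the random-probe rows, which read 4.97 to 5.12 on the log2 scale.

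Osgin1, an oxidative stress-induced growth inhibitor, varied far more within the groups than between them. Its brighter row had 13.05, 10.51 and 9.79 in LPS/GalN and 11.15, 10.73 and 12.73 in LPS, and its other row 12.73, 10.11 and 9.64 in LPS/GalN and 10.56, 10.80 and 12.60 in LPS. Both rows were high on the same 2 arrays, LPS/GalN replicate 1 and LPS replicate 3, and lower on the 4 others. The changes of -0.42 ± 0.84 and -0.49 ± 0.84 (SE) had adjusted p-values of 0.845 and 0.815. The within-group SD of the brighter row, pooled over the groups, was larger than that of 99.5% of all rows. The 2 arrays with high Osgin1 were those on which neither intestinal nor thymus markers were high, and the part of those tissues in the difference was not tested. The change was -1.61 without LPS replicates 1 and 2, and 1.51 without LPS/GalN replicates 2 and 3. On the arrays with high markers of other tissues, Osgin1 read 10.51 and 9.79 in LPS/GalN and 11.15 and 10.73 in LPS.

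**Figure D3:**
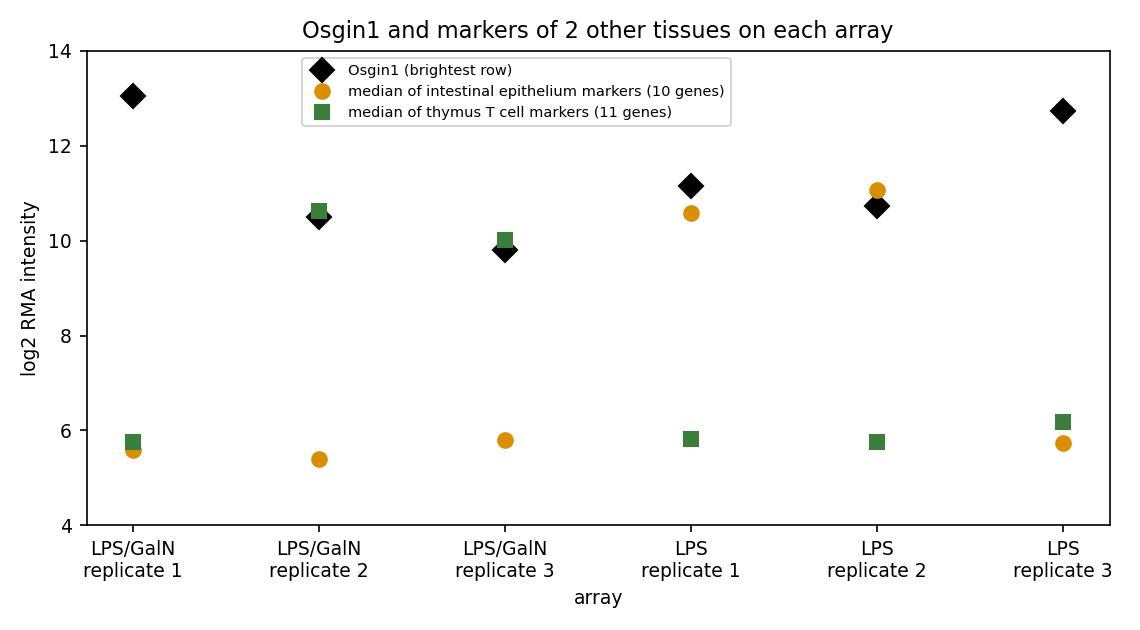
Log2 RMA intensity of the brighter Osgin1 row on each array, beside the median log2 intensity of 10 intestinal epithelium markers and 11 thymus T cell markers. Osgin1 is highest on LPS/GalN replicate 1 (13.05) and LPS replicate 3 (12.73), where both marker medians lie between 5.59 and 6.17.

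Several partners and competitors of NRF2 fell in LPS/GalN. Of 11 listed regulators, all measured, 4 fell and 0 rose, with a median log2 change of -0.61. Over all rows 3.13% fell and 0.654% rose, and the list was chosen with earlier results of these data known. Mafk, a small MAF protein gene, had 9.61, 8.92 and 8.99 in LPS/GalN and 11.75, 11.87 and 11.71 in LPS, and was 6.06-fold lower (log2 -2.60 ± 0.25, SE, adjusted p = 0.00148 by limma). Bach1, the gene of the repressor that competes with NRF2, had 6.50, 7.19 and 6.53 in LPS/GalN and 9.32, 8.78 and 9.19 in LPS, and was 5.13-fold lower (adjusted p = 0.0033). For both genes the groups were separated by more than 1 log2 unit.

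Maff, another small MAF gene, was 3.70-fold lower (adjusted p = 0.00671), whereas Mafg, the third of the small MAF genes, differed by 0.50 ± 0.23 (SE, adjusted p = 0.305). Bach2, a relative of Bach1 best known from B cells, was 3.15-fold lower in its brightest row with an adjusted p of 0.0492, and 2 of its 3 rows passed the threshold. Bach2 missed the threshold when any LPS array, or the LPS/GalN array of replicate 2, was left out (highest adjusted p 0.15), while Mafk, Bach1 and Maff passed with each array left out. Cul3, the scaffold of the ligase that degrades NRF2, differed by 0.03 ± 0.21 (SE, adjusted p = 0.961). Sqstm1, the gene of the KEAP1-binding protein p62, differed by -0.62 ± 0.21 (SE, adjusted p = 0.168). The median of the list was -0.51 both without LPS replicates 1 and 2 and without LPS/GalN replicates 2 and 3, settings that leave 1 array in a group.

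Other regulators of Hmox1 that fell were components of AP-1, NF-kB and related stress signalling. A list of 16 such genes, chosen with earlier results of these data known, holds Bach1 as well, and 15 were measured. Of these 7 fell and 0 rose, against 3.13% and 0.654% of all rows, and the median log2 change was -1.29. Atf3, a stress-induced factor, was 15.2-fold lower, with 7.07, 6.09 and 6.83 in LPS/GalN and 10.57, 10.72 and 10.50 in LPS (adjusted p = 0.000501 by limma). The AP-1 genes Junb and Jun were 5.62-fold and 4.49-fold lower.

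The NF-kB subunit genes Rela and Nfkb1 were 6.31-fold and 4.02-fold lower. The adjusted p-values of Junb, Rela, Jun and Nfkb1 were 0.000783, 0.00112, 0.0041 and 0.00436 by limma. Stat3, the main transducer of interleukin-6 signals, was 2.58-fold lower, with a mean log2 of 13.73 in LPS/GalN and of 15.10 in LPS, near the highest values on the arrays (15.83 to 15.92). Hif1a, the hypoxia factor, and Atf4, a factor of the integrated stress response, differed by -1.29 and -1.12 without passing the threshold (adjusted p = 0.0803 and 0.0566), and the AP-1 gene Fos differed by 0.10 (adjusted p = 0.937). Stat3, Hif1a, Atf4 and Fos were named after their values were seen. The 7 genes that fell passed the threshold with each array left out. The median of the list was -1.27 without LPS/GalN replicates 2 and 3 and -1.31 without LPS replicates 1 and 2, settings that leave 1 array in a group.

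**Figure D4:**
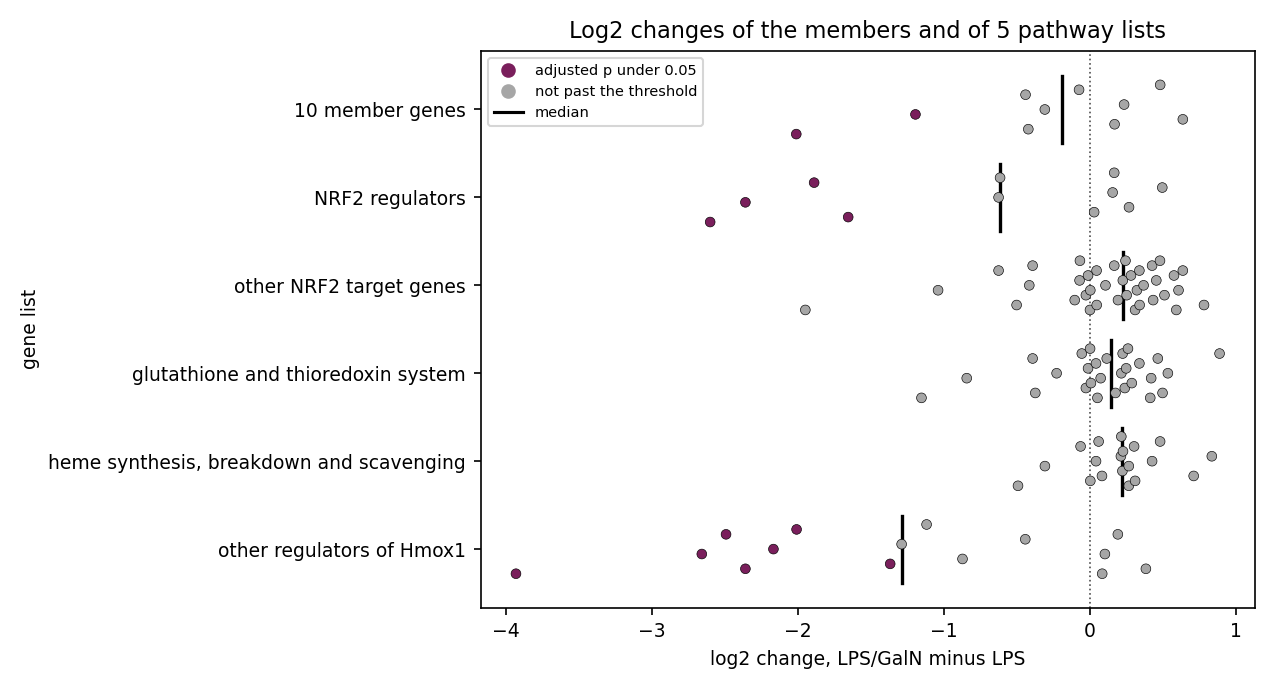
Log2 change, LPS/GalN minus LPS, of each gene in 6 lists, with genes past the threshold in purple and a bar at the median of the list. The purple points lie in the lists of members, NRF2 regulators and other regulators of Hmox1, and the medians of the target, glutathione and heme lists lie between 0.15 and 0.23.

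No gene of a list of further NRF2 targets passed the threshold. Of 40 further NRF2 targets, 37 were measured, and 0 rose and 0 fell by limma with all 6 arrays. Over all rows 0.654% rose and 3.13% fell, so 0 in a list of this size is near the share of all rows. The median log2 change of the list was 0.23, against 0.11 over rows with a mean above an intensity of 100. The list median was 0.38 when LPS replicates 1 and 2 were left out and 0.19 when LPS/GalN replicates 2 and 3 were. At an unadjusted p under 0.05, 3 of the 37 were higher and 2 lower, where 17.5% of all rows had such a p in either direction. Blvrb, which encodes a flavin and biliverdin reductase, had 12.32, 12.44 and 12.28 in LPS/GalN and 11.91, 11.91 and 11.94 in LPS, a change of 0.43 ± 0.20 (SE, adjusted p = 0.331). Prdx1, a peroxiredoxin gene, differed by -0.03 ± 0.21 (adjusted p = 0.968), Txn1, the gene of thioredoxin, by -0.39 ± 0.22 (adjusted p = 0.41), and the cystine transporter gene Slc7a11 by -0.50 ± 0.33 (SE, adjusted p = 0.489). Slc7a11 read 5.30 to 6.22 in LPS/GalN and 5.74 to 6.48 in LPS, not far above background. Trib3, of the same list and named after its values were seen, differed by -1.04 (adjusted p = 0.36 by limma). With LPS/GalN replicate 1 left out Trib3 differed by -1.65 and passed the threshold (adjusted p = 0.043 by limma).

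Gpx2, the gene of a glutathione peroxidase of the gut, was high on the arrays with high intestinal markers. It had 5.26, 5.47 and 7.08 in LPS/GalN and 8.91, 8.67 and 6.07 in LPS, with a change of -1.95 ± 0.78 (SE, adjusted p = 0.251). The high values were those of LPS replicates 1 and 2, on which the intestinal markers were high, and without these arrays the change was -0.13. Without LPS/GalN replicates 2 and 3 it was -2.62. With LPS replicate 3 left out, so that both remaining LPS arrays had high intestinal markers, it was -2.86 and passed the threshold (adjusted p = 0.0352 by limma).

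Among 28 measured genes of the glutathione and thioredoxin system, of 30 listed, 0 passed the threshold, where 3.78% of all rows did. The list median was 0.15 (0.12 without LPS replicates 1 and 2, and 0.14 without LPS/GalN replicates 2 and 3). Over rows with a mean above an intensity of 100 the median was 0.11. At an unadjusted p under 0.05, 1 was higher and 2 were lower, where 17.5% of all rows had such a p in either direction. Sod2, the mitochondrial superoxide dismutase gene and a known NF-kB target, had 11.85, 11.70 and 11.87 in LPS/GalN and 12.79, 12.61 and 12.56 in LPS in its brighter row. The groups did not overlap, and the change was -0.84 ± 0.21 (SE, adjusted p = 0.075), while 1 of its 2 rows passed the threshold.

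The rest of heme metabolism showed no change past the threshold either. Of 21 genes of heme synthesis, breakdown and scavenging, 19 were measured and 0 passed, where 3.78% of all rows did. At an unadjusted p under 0.05, 2 were higher and 0 lower, where 17.5% of all rows had such a p in either direction. The list median was 0.22, against 0.11 over rows with a mean above an intensity of 100. That of the list was 0.21 without the first pair of arrays, LPS replicates 1 and 2, and 0.16 without LPS/GalN replicates 2 and 3. Hmox2, the constitutive heme oxygenase, differed by 0.04 ± 0.22 (SE, adjusted p = 0.949), with a mean log2 of 11.62 in LPS/GalN and 11.58 in LPS. Blvra, the gene of the main biliverdin reductase, differed by 0.06 ± 0.31 (SE, adjusted p = 0.947). The 95% interval of the Hmox2 difference ran from -0.47 to 0.56.

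**Figure D5:**
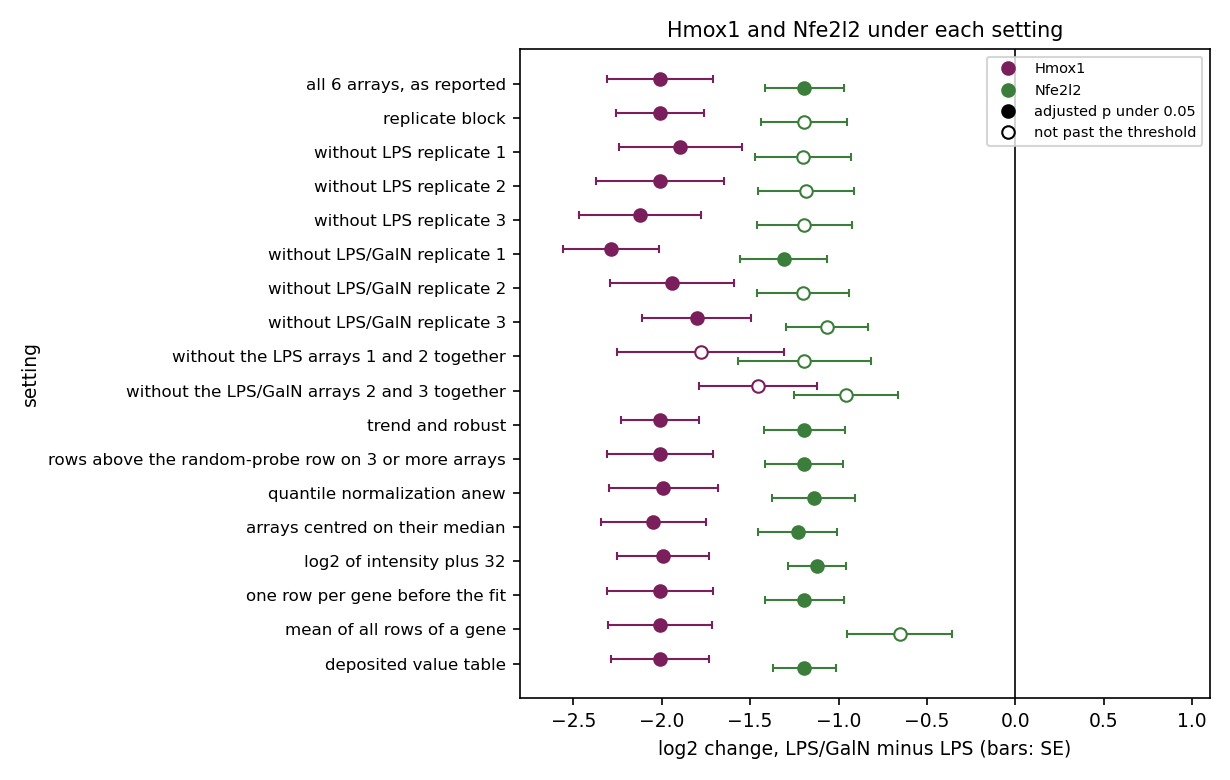
Log2 change of Hmox1 and Nfe2l2, LPS/GalN minus LPS, with all 6 arrays and under 17 alternatives, with bars of 1 SE and filled symbols where the adjusted p was under 0.05. Hmox1 is filled in all but the settings that leave a group with 1 array, while Nfe2l2 passes in 8 of the 17 alternatives.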

How the data were processed

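RMA intensities on a linear scale were deposited by the authors, 1 file for each NimbleGen array, per the file headers. RMA, named in the submitters' processing notes, subtracts background, equalises arrays and combines the probes of a row; its version is not given in the sources used here. A deposited value table kept 18076 rows, none under an intensity of 50, and was used as an alternative. Members and lists were chosen with earlier results of these data known. Genes were found by their descriptions, accessions or a hand-made table of names, and 281 rows of listed genes lay on the reference chromosome. Rows matched by the hand-made names had to lie on it, so for them this is no separate check. A gene is represented by its brightest row on average. Log2 intensities were compared by limma 3.58.1 in R 4.3.3 (lmFit and eBayes, group only, two-sided, 4.09 prior degrees of freedom) over 44170 rows, with no filter on dim rows and no set test. The fit was tested on simulated data. Arrays give no counts, so the number of arrays limits the precision. Replicates came from separate treatments, per the labels, and their numbers were not taken as pairs. Named were all rows of the 10 genes, list genes past the threshold (up to 6 of smallest p each way) and 14 fixed genes. Alternatives were the replicate block, arrays left out, another spread model, filter, normalization, scaling, pseudocount, treatment of rows, and the value table.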

Additional observations from a re-analysis of the deposited data

How the results depend on the processing

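Hmox1 kept its sign in 17 of 17 alternatives and passed the threshold in 15. Without the LPS arrays 1 and 2 its log2 change was -1.78, and without the LPS/GalN arrays 2 and 3 it was -1.45. In these 2 settings 1 array stands for a group and is assumed to vary like the others. Nfe2l2 kept its sign in all 17 and passed in 8. With the replicate block it was -1.19 with an adjusted p of 0.0746, so that 1 member passed in place of 2, and the block left Hmox1 past the threshold (adjusted p = 0.0196). Deviations of same-numbered arrays from their group means correlated by 0.00188, -0.00429 and 0.0195, and those of differently numbered arrays by -0.0634 to 0.058. With 3 arrays in a group, and other tissues on some of them, such values cannot settle whether the numbers pair the samples. With 1 array left out Nfe2l2 lay between -1.31 and -1.07. It was -1.19 without the LPS arrays 1 and 2, -0.96 without the LPS/GalN arrays 2 and 3 and -0.65 (adjusted p = 0.305) with the mean of all its rows, where the dim row counts equally. The number of members that fell was then 0, 0 and 1, and 1 to 2 with 1 array left out. With trend and robust fitting 1 member, Gclc, rose. The median of the members, -0.19 over all arrays, lay between -0.24 and 0.10 with 1 array left out, and was 0.0166 without the LPS arrays 1 and 2 and 0.37 without the LPS/GalN arrays 2 and 3. The signs of Gsr, Osgin1 and Srxn1, none past the threshold, turned: Gsr to 0.0113 without LPS replicate 1 (-0.177 to 0.0113 with 1 array left out), to 0.11 without the LPS arrays 1 and 2 and to 0.14 without the LPS/GalN arrays 2 and 3, Osgin1 to 0.17 without LPS replicate 3, to 0.24 without LPS/GalN replicate 3 (-1.39 to 0.24 with 1 array left out) and to 1.51 without the LPS/GalN arrays 2 and 3, and Srxn1 to -0.0853 without LPS/GalN replicate 1 (-0.0853 to 0.36 with 1 array left out). Of all rows, 1382 fell and 289 rose. With 1 array left out 831 to 1358 fell and 53 to 804 rose. Without the LPS arrays 1 and 2, 0 fell and 0 rose by limma, and without the LPS/GalN arrays 2 and 3, 350 and 26. Rises numbered 144 with the replicate block, 1093 with trend and robust fitting, 613 with log2 of intensity plus 32 and 758 in the deposited value table. Of the listed pathway genes 10 fell and 0 rose, against 0 and 0 without the LPS arrays 1 and 2, 4 and 0 without the LPS/GalN arrays 2 and 3, 17 and 6 with trend and robust fitting, and 14 and 3 in the value table. The cause of these differences was not tested. Leaving arrays out left fewer arrays, and the value table held fewer rows. The replicate block, trend and robust fitting and the log2 of intensity plus 32 used all 6 arrays and 44170 rows. The 15 member rows were above the random-probe row on all arrays.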
